A study of Mus musculus with 6 samples.

Results

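50 genes of DNA damage signaling and repair were followed in the irradiated mouse cortex. They were taken by gene name from a list that covers 7 roles, from the damage kinases to the Fanconi anemia pathway. The list was chosen with earlier results of these data known. All 50 were found among the 51826 genes of the count table. Bulk RNA sequencing had been performed on 3 cortex samples from wild-type mice (*Lgmn*+/+-IR) and 3 from *Lgmn* knockout mice (*Lgmn*-/--IR), each giving 1 library. The sample titles and the paper do not state whether each sample came from 1 separate mouse. *Lgmn* encodes asparagine endopeptidase (AEP, or legumain), a lysosomal cysteine protease that cuts after asparagine. All mice were male, on the BALB/c strain and 6 to 8 weeks old. All had received 10 Gy of X-ray to the whole brain 3 days before the cortex was taken. Samples without irradiation were not part of the data analysed here, and every difference given below is one between genotypes after irradiation, not a response to irradiation. The knockout descends from 1 targeted ES cell clone injected into BALB/c blastocysts and carries a floxed *Lgmn* with Cre (*Lgmn* flox/flox: Cre+). The promoter that drives Cre and the strain of the ES cells are not given in the sources used here.

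A cell that meets ionizing radiation carries base damage, single-strand breaks and double-strand breaks. Kinases such as ATM and ATR sense the damage and mark the chromatin, and separate pathways then mend each lesion: nonhomologous end joining reseals double-strand breaks at any point of the cell cycle, homologous recombination copies a sister chromatid in dividing cells, and excision pathways replace damaged bases or nucleotides. Neurons no longer divide, so end joining and excision repair are the pathways most often discussed for the adult cortex. Much of the response is regulated on proteins, by phosphorylation and ubiquitin, which an mRNA measurement does not show.

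Depth was close among the libraries, from 41874462 to 46829441 counts. After removal of genes with too few counts, 18345 genes were tested with edgeR's quasi-likelihood test, and all 50 repair genes were among them. A gene was called when its Benjamini-Hochberg adjusted *p* over all 18345 genes was under 0.05, and called a differentially expressed gene (DEG) when its absolute log2 fold change (*Lgmn*-/--IR over *Lgmn*+/+-IR) was also over 1. *Lgmn* itself fell by 0.64 on the log2 scale (SE 0.12, adjusted *p* = 0.0315 with edgeR's quasi-likelihood test), from 5558, 5528 and 5775 counts to 3703, 3269 and 4109. The knockout libraries therefore kept many *Lgmn* reads, and gene counts do not show whether these come from the deleted part. At the protein level, which RNA counts do not measure, the paper reports that immunoblots of knockout cortex lacked the AEP band. Neuronal markers were abundant in all 6 libraries, summing to between 6129 and 8526 CPM (counts scaled to library size), and 0 of 6 were called or had an unadjusted *p* under 0.05 with edgeR. Red blood cell markers were called higher in the knockout for 5 of 5 genes, summing to 7.59 to 15.8 CPM in wild-type and 234 to 2273 CPM in knockout libraries. Oligodendrocyte markers were called lower for 4 of 5 genes, with a sum of 2415 to 2922 against 1690 to 1877 CPM. Of 5 astrocyte markers 1 was called (*Aqp4*, higher), 3 had an unadjusted *p* under 0.05, all 5 had a log2 fold change above 0, and 4 had every knockout library above every wild-type library. Of microglial, endothelial, choroid plexus and striatal markers 0 were called with edgeR, with an unadjusted *p* under 0.05 for 2 of 6 microglial and 1 of 4 endothelial genes, all lower. The log2 fold change was below 0 for 5 of 6 microglial and 4 of 4 striatal genes. It was above 0 for 3 of 4 endothelial and 3 of 4 choroid plexus genes. Summed striatal markers were 266, 575 and 929 CPM in wild-type libraries and 966, 184 and 213 CPM in knockout libraries. They overlapped between genotypes and were highest in *Lgmn*+/+-IR replicate 3 and *Lgmn*-/--IR replicate 1. The part of these markers in the results below was not tested, apart from a fit with the striatal marker level as a covariate. In bulk tissue, fewer cells of a type and less RNA per cell cannot be told apart.

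Per transcript length, repair genes spanned a wide range of levels. *Ddb1*, an adaptor of a ubiquitin ligase with many substrates besides damaged chromatin, had the highest mean FPKM (fragments scaled for transcript length and library size), 51.1 over the 6 libraries. The 3 base excision genes that came next were *Polb* with 28.9 FPKM, *Parp1* with 19.5 FPKM and *Apex1* with 19.2 FPKM. At the other end lay *Fanci* with 0.198 FPKM, *Brca1* with 0.238 FPKM and *Palb2* with 0.285 FPKM. The 3 genes with the lowest FPKM thus belonged to homologous recombination and the Fanconi anemia pathway, and the highest to the excision pathways. *Nhej1*, the end joining factor XLF, is listed at 0 FPKM in all 6 libraries although 50 to 80 reads were counted on it in each, so it has no level per length here.

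**Figure D1:**
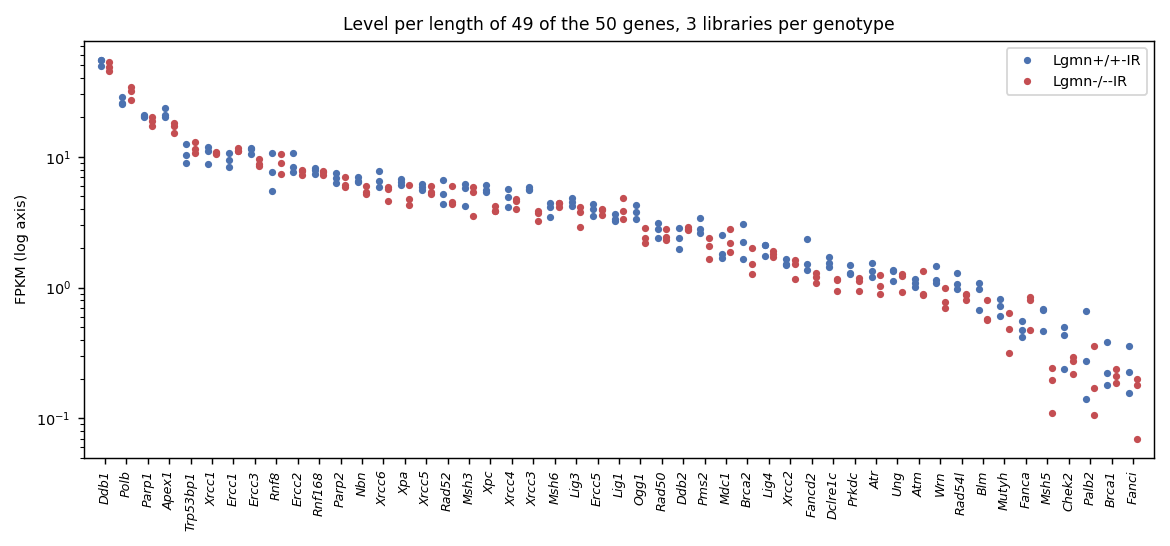
FPKM of 49 repair genes on a log axis (y), ordered by mean level (x), with 1 point per library and *Nhej1* left out because it is listed at 0. The levels run from *Ddb1* (mean 51.1) to *Fanci* (mean 0.198), and the 3 *Lgmn*-/--IR points of *Msh5* all lie below its 3 *Lgmn*+/+-IR points.

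Between genotypes, 3 of the 50 genes were called (6%), against 3.33% of all genes tested. All 3 were lower in *Lgmn*-/--IR: *Msh5*, a MutS homolog of meiotic recombination, *Xrcc3*, a gene of homologous recombination, and *Xpc*, the damage sensor of nucleotide excision repair. Of all genes tested, 1.68% were called lower and 1.65% higher. *Msh5* was the only DEG among the 50, while 2.06% of all genes were DEGs. With 3 calls, a share of 6% rests on few genes of a list chosen with earlier results known, and no test of the list was made. An unadjusted *p* under 0.05 was found for 12 of the 50 genes (24%), 11 lower and 1 higher, against 18.6% of all genes (9.34% lower and 9.26% higher).

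More of the genes lay lower than higher in the knockout, most of them without passing the test. The log2 fold change was below 0 for 34 of 50 genes (68%), against 51.7% of all genes, and its median was -0.13, against -0.01 over all genes. For 18 genes (36%) the libraries of one genotype all lay above those of the other, against 25.7% of all genes. Of these, 16 were lower in *Lgmn*-/--IR (13.3% of all genes were) and 2 were higher (12.4% of all genes were). The 16 were *Atr*, *Prkdc*, *Xrcc6*, *Dclre1c*, *Brca2*, *Rad54l*, *Xrcc3*, *Wrn*, *Ogg1*, *Apex1*, *Mutyh*, *Ercc3*, *Xpa*, *Xpc*, *Msh5* and *Pms2*, and the 2 were *Trp53bp1* and *Ercc1*. No gene other than *Msh5* had an absolute log2 fold change over 1, and the highest of the 50 values was 0.41, for *Mdc1*. The shares given here belong to a list chosen with earlier results of these data known. Of 115 other repair genes tested, 55.7% had a log2 fold change below 0 and 27.8% had libraries that did not overlap.

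**Figure D2:**
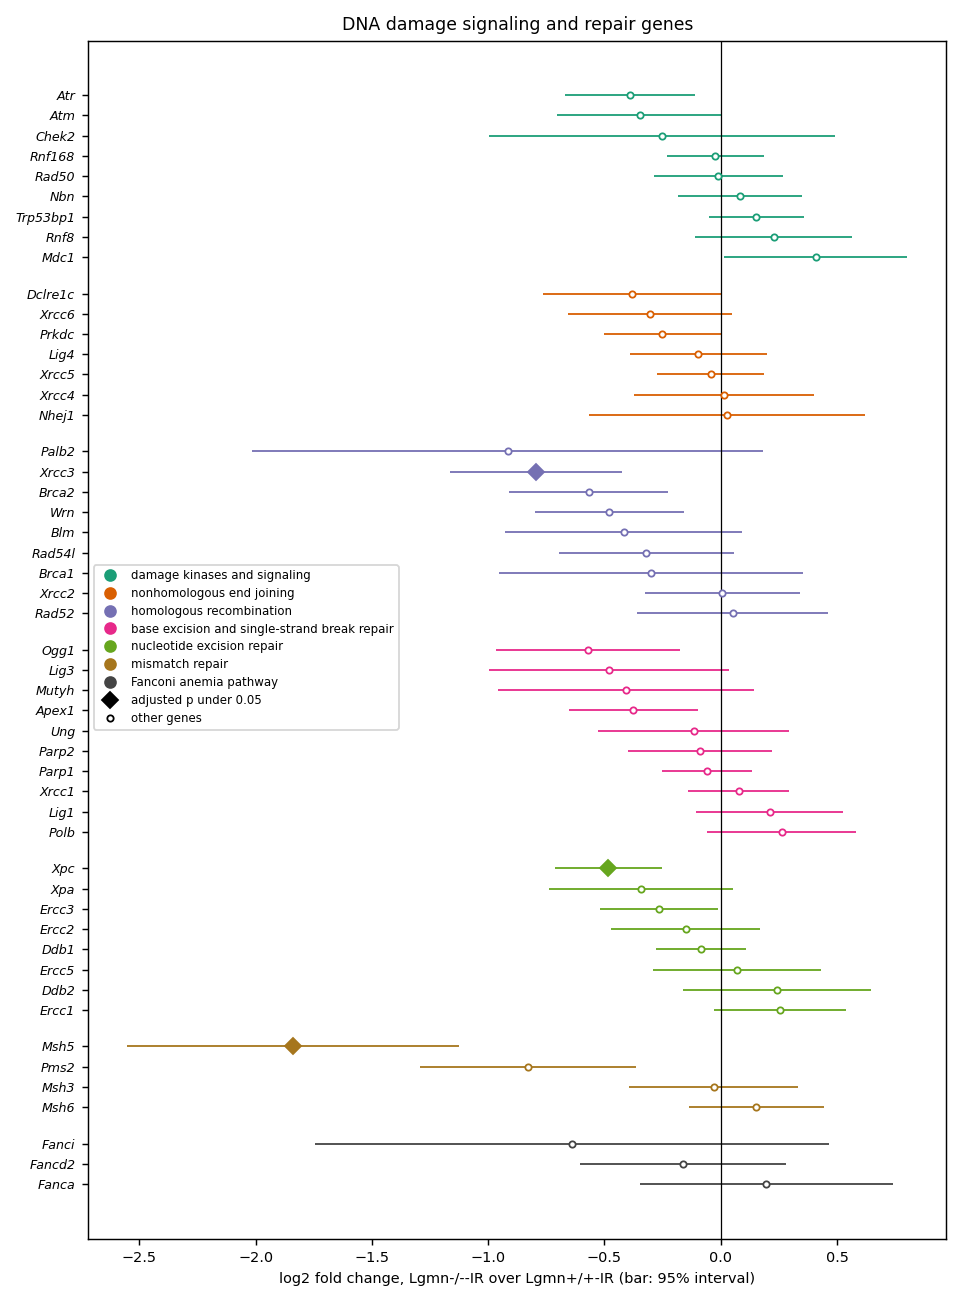
Log2 fold change of each of the 50 genes (x, *Lgmn*-/--IR over *Lgmn*+/+-IR) with its 95% interval (bars), grouped and colored by role, with filled diamonds for an adjusted *p* under 0.05. *Msh5* (-1.84), *Xrcc3* (-0.79) and *Xpc* (-0.48) are the filled points, and 34 of the 50 points lie left of 0.

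*Msh5* showed the largest difference. Its protein pairs with MSH4 and stabilises crossover intermediates in meiosis rather than correcting mismatches. It was counted 47, 53 and 40 times in wild-type libraries but 13, 11 and 16 times in knockout libraries, a mean of 1.07 ± 0.181 against 0.298 ± 0.064 CPM (SD, n = 3 each). The highest knockout library thus lay well below the lowest wild-type library. The log2 fold change was -1.84 (SE 0.30, 95% interval -2.55 to -1.13, adjusted *p* = 0.0233 with edgeR's quasi-likelihood test), a level 0.279 times that of *Lgmn*+/+-IR. Its partner *Msh4* was counted 2, 5 and 2 times and 0, 2 and 0 times, which was too few to be tested. *Msh5* was among the scarcest of the 50 transcripts, so counting error is large, and it does not cover repeated copies of a molecule in reads without molecular identifiers.

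The other mismatch repair genes on the list are broadly expressed. *Pms2*, which encodes a mismatch repair endonuclease, was counted 573, 784 and 528 times in wild-type libraries and 316, 431 and 352 times in knockout libraries. Every knockout library was below every wild-type library, yet the log2 fold change of -0.83 (SE 0.20, 95% interval -1.29 to -0.36) had an adjusted *p* of 0.0767 with edgeR's quasi-likelihood test. Wild-type libraries of *Pms2* spread widely, from 11.6 to 18.3 CPM. *Msh3* and *Msh6*, which recognise mismatches and small loops, had log2 fold changes of -0.03 (SE 0.15) and 0.15 (SE 0.12) with overlapping libraries. On GRCm38, *Pms2* (chr5:143909964-143933968, plus strand) overlaps *Rsph10b* and *Gm42421* on its own strand and *Gm17135* on the other, and reads in the overlap could have been given to either gene.

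In homologous recombination 1 of 9 genes was called, against 3.33% of all genes. An unadjusted *p* under 0.05 was found for 3 of 9, against 18.6% of all genes. The median log2 fold change was -0.42, against -0.01 over all genes. Of 26 other recombination genes tested, 0 were called with edgeR and the median was -0.08. Among these 26, 3 lower and 3 higher genes had an unadjusted *p* under 0.05. *Xrcc3*, which acts in strand exchange during recombination, was counted 462, 509 and 601 times in wild-type libraries and 349, 330 and 252 times in knockout libraries, a mean of 11.98 ± 1.20 against 6.90 ± 1.07 CPM. The libraries did not overlap. It fell by 0.79 on the log2 scale (SE 0.16, 95% interval -1.16 to -0.43, adjusted *p* = 0.0449 with edgeR's quasi-likelihood test), to 0.576 times the wild-type level. *Brca2*, a mediator of strand exchange, had 289, 297 and 276 counts against 219, 186 and 193, and *Wrn*, the Werner syndrome helicase, had 336, 345 and 342 counts against 219, 286 and 251. Neither gene's libraries overlapped between genotypes. Their log2 fold changes of -0.57 (SE 0.14) and -0.48 (SE 0.14) missed the threshold (adjusted *p* = 0.0930 and 0.121).

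*Palb2*, the bridge between BRCA1 and BRCA2, had counts of 68, 24 and 47 against 29, 33 and 14, which overlapped, and a log2 fold change of -0.92 (SE 0.47, adjusted *p* = 0.347). Without *Lgmn*+/+-IR replicate 1 it was -0.50, and on the log2(FPKM + 1) and log2(FPKM + 0.1) scales -0.15 and -0.48. *Rad52*, which anneals single strands, had 388, 318 and 306 counts against 306, 435 and 343 and a log2 fold change of 0.05 (SE 0.17, adjusted *p* = 0.902). *Rad54l*, a DNA translocase, had every knockout library below every wild-type library, with 5.53 ± 0.816 against 4.43 ± 0.287 CPM. The remaining genes had overlapping libraries: *Xrcc2* at a log2 fold change of 0.01, *Brca1* at -0.30 and the Bloom syndrome helicase *Blm* at -0.42. *Rad51c*, the direct partner of XRCC3 and not on the list, had -0.01 (SE 0.19, adjusted *p* = 0.979). Recombination depends on a sister chromatid, and markers of cycling cells were low in both genotypes, summing to 23.0 to 25.8 CPM in wild-type and 16.4 to 28.2 CPM in knockout libraries, with 0 of 12 called by edgeR and 0 of 12 at an unadjusted *p* under 0.05.

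*Xpc* was the called gene of nucleotide excision repair. XPC finds helix-distorting damage anywhere in the genome and is the first protein of global genome repair. Wild-type counts were 960, 964 and 1153 and knockout counts 724, 779 and 758, a mean of 23.5 ± 1.64 against 16.8 ± 0.487 CPM. The knockout libraries lay close together, below all wild-type libraries. *Xpc* fell by 0.48 on the log2 scale (SE 0.098, 95% interval -0.71 to -0.25, adjusted *p* = 0.0493 with edgeR's quasi-likelihood test), to 0.716 times the wild-type level. Its complex partners, which were not on the list, did not pass the test, with log2 fold changes of 0.21 (SE 0.13) for *Rad23b* and -0.11 (SE 0.11) for *Cetn2*.

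Of the genes that act after XPC, *Ercc3*, a helicase of TFIIH, measured 31.1, 33.7 and 35.8 CPM in the wild type, against 29.7, 25.0 and 28.9 CPM in the knockout. Its log2 fold change was -0.27 (SE 0.11, adjusted *p* = 0.251), and the libraries did not overlap. *Xpa*, which verifies the lesion, measured 6.28 ± 0.314 against 4.95 ± 0.903 CPM, also without overlap. *Ercc1*, the noncatalytic subunit of the XPF nuclease, lay in the opposite direction, with 10.95 to 13.2 against 13.9 to 15.7 CPM and a log2 fold change of 0.25 (SE 0.12, adjusted *p* = 0.314). *Ercc4*, which encodes XPF and was not on the list, had 0.05 (SE 0.097). The other TFIIH helicase *Ercc2* (-0.15), the nuclease gene *Ercc5* (0.07) and the UV damage sensor gene *Ddb2* (0.24) had overlapping libraries, as did *Ddb1*, whose interval of -0.28 to 0.11 was among the narrowest.

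Promoter sequence of the genes that were called is shown to place these differences in the genome. RefSeq promoters (GRCm38.p6) were matched for 40 of the 50 genes, and not for *Nbn*, *Rad50*, *Prkdc*, *Xrcc2*, *Wrn*, *Polb*, *Ercc3*, *Xpc*, *Ddb2* and *Fancd2*. The bases below lie upstream of the start, on the minus strand and written 5′ to 3′ in the direction of transcription. Capitals mark the CCAAT box (CCAAT) and the GC box (GGGCGG), each searched on both strands. The *Msh5* stretch is chr17:35046746-35046872, from 250 to 124 bases before the start, since exons occupy the bases nearer to it, and the *Xrcc3* stretch is chr12:111813880-111814129, the 250 bases before the start.
Msh5: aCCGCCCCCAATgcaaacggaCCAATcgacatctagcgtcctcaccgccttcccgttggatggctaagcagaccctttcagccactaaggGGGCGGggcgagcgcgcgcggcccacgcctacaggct
Xrcc3: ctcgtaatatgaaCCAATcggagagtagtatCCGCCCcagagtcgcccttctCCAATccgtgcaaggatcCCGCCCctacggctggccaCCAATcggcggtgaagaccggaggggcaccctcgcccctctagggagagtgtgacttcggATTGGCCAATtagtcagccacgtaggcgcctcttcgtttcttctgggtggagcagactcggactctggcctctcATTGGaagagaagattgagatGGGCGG

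The *Msh5* stretch held 2 CCAAT boxes and 2 GC boxes, and the *Xrcc3* stretch held 6 CCAAT boxes and 3 GC boxes. Over the 250 bases before the start, a CCAAT box was found in 21 of the 40 repair genes matched (52.5%), against 35.7% of the promoters of tested genes and 34.5% of all promoters. A GC box was found in 29 of the 40 (72.5%), against 56.4% and 32.9%. The CACGTG motif was present in 5 of the 40 (12.5%, against 8.07% of tested genes and 6.05% of all promoters), TTTGAA in 2 (5%, against 10.6% and 16.3%), and the 10-base unit of the p53 response element in 1 (2.5%, against 5.93% and 7.18%), which was *Fanca*. These shares describe letters in a window and were not tested.

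The 3 called genes lie on different chromosomes. *Msh5* (chr17:35028605-35046745 on GRCm38, minus strand) sits in the H2 region, the mouse major histocompatibility complex, taken here as the span from the first to the last gene whose symbol starts with H2- (chr17:33974659-37483552). In this region 15 of 125 tested genes were called (12%), 8 lower and 7 higher, against 591 of 18015 genes (3.28%) outside it and away from *Lgmn*. Without *Msh5* and *Mdc1*, which also lies there, 14 of 123 were called. *Xrcc3* (chr12:111803192-111813873, minus strand) lies 9.36 Mb from *Lgmn* (chr12:102394084-102439813) and overlaps *Klc1* on the other strand. Within 10 Mb of *Lgmn*, 4 of 156 genes were called (2.56%), all lower: *Lgmn* itself, *Serpina3h*, *Serpina3n* and *Xrcc3*. Without *Xrcc3*, 3 of 155 were called. *Xrcc3* lies near the edge of this window, and the single direction holds only inside it. Past 10 Mb on the same side, *Adssl1* was called lower (log2 fold change -0.50). *Ighg2c* (5.57) and *Ighm* (1.68) were called higher there. *Xpc* (chr6:91489305-91515888, minus strand) overlaps no annotated gene. What the H2 region has to do with the *Msh5* difference was not tested.

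**Figure D3:**
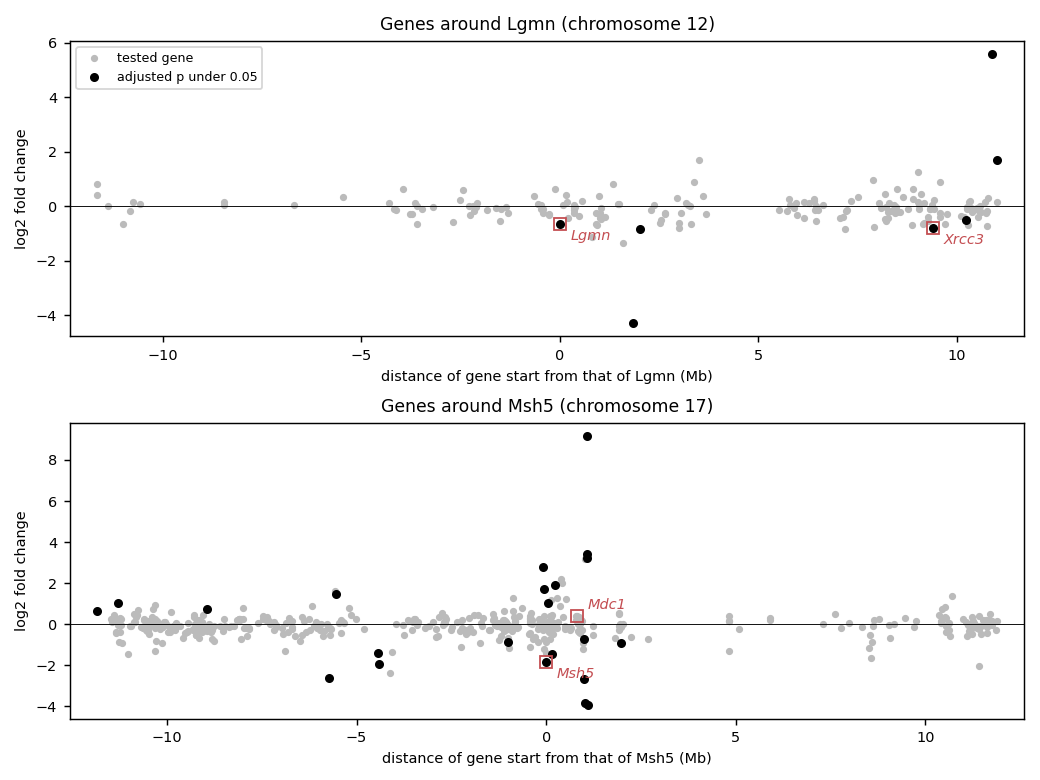
Log2 fold change (y) of each tested gene against the distance of its start from that of *Lgmn* or *Msh5* in Mb (x), with black points for an adjusted *p* under 0.05 and red squares for the genes named. Black points are dense around *Msh5*, in the region where 15 of 125 genes were called, and sparse within 10 Mb of *Lgmn*, where 4 of 156 were. The plot reaches past 10 Mb, where *Adssl1*, *Ighg2c* and *Ighm* are also black.

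Of the 9 genes of damage kinases and signaling 0 were called with edgeR or DESeq2, against 3.33% and 7.76% of all genes. With edgeR, 2 of 9 had an unadjusted *p* under 0.05, against 18.6% of all genes. The median log2 fold change of the 9 genes was -0.01, against -0.01 over all genes. *Atr*, the kinase that answers stalled replication and single-stranded DNA, measured 10.2, 9.04 and 9.92 CPM in the wild type, against 7.86, 7.28 and 7.15 CPM in the knockout. The libraries did not overlap, but the log2 fold change of -0.39 (SE 0.12) had an adjusted *p* of 0.147 with edgeR's quasi-likelihood test. *Atm*, the kinase of double-strand breaks, measured 9.54, 10.7 and 13.0 against 9.54, 8.32 and 8.23 CPM, with overlapping libraries and a log2 fold change of -0.35 (SE 0.15, adjusted *p* = 0.277). Without *Lgmn*+/+-IR replicate 3 it was -0.22, and on the log2(FPKM + 1) and log2(FPKM + 0.1) scales -0.038 and -0.077. *Chek2*, a checkpoint kinase that ATM activates, had 26 to 47 counts against 26 to 35 and an interval of -0.996 to 0.49, too wide to tell a rise from a fall (adjusted *p* = 0.716).

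2 chromatin factors of the break response, *Mdc1* and *Trp53bp1*, had fold changes above 0. *Mdc1*, which binds phosphorylated H2AX, measured 13.7, 12.8 and 15.7 CPM in the wild type, against 18.4, 15.1 and 22.5 CPM in the knockout. Its lowest knockout library was below its highest wild-type library, and the log2 fold change of 0.41 (SE 0.17) had an adjusted *p* of 0.255. Without *Lgmn*-/--IR replicate 3 it was 0.25, and on the log2(FPKM + 1) scale 0.13. *Trp53bp1*, which encodes 53BP1 and steers breaks to end joining, measured 72.8, 69.3 and 75.9 CPM against 82.3, 76.4 and 83.9 CPM. These libraries did not overlap, at a log2 fold change of 0.15 (SE 0.086, adjusted *p* = 0.393). The ubiquitin ligase genes *Rnf8* (0.23) and *Rnf168* (-0.02) and the MRN complex genes *Nbn* (0.08) and *Rad50* (-0.01) had overlapping libraries in CPM. The direction of *Nbn* turned in the deposited FPKM, where it measured 6.44, 7.07 and 6.58 in the wild type and 5.998, 5.24 and 5.41 in the knockout, all lower. With edgeR and with DESeq2, 0 of these 6 genes passed the test.

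In nonhomologous end joining 0 of 7 genes were called with edgeR or DESeq2, against 3.33% and 7.76% of all genes. With edgeR, 1 of 7 had an unadjusted *p* under 0.05, against 18.6% of all genes. That gene was *Dclre1c*, which encodes the hairpin-opening nuclease Artemis and measured 6.14, 4.95 and 4.75 CPM against 4.43, 3.88 and 3.83 CPM (log2 fold change -0.38, SE 0.16, adjusted *p* = 0.268). *Prkdc*, the catalytic subunit of the DNA-dependent protein kinase, measured 19.6, 17.8 and 18.2 CPM against 16.1, 16.5 and 14.2 CPM (log2 fold change -0.25, SE 0.11, adjusted *p* = 0.273). *Xrcc6*, which encodes Ku70, measured 12.7, 15.5 and 13.2 CPM against 11.98, 12.21 and 9.32 CPM (log2 fold change -0.30, SE 0.15, adjusted *p* = 0.332). In each of these 3 genes the knockout libraries lay below all wild-type libraries. *Xrcc5*, for the partner Ku80, had a log2 fold change of -0.04 (95% interval -0.27 to 0.19). The ligase gene *Lig4* had -0.10 and its cofactor genes *Xrcc4* and *Nhej1* had 0.01 and 0.03.

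In base excision and single-strand break repair, 0 of 10 genes were called with edgeR or DESeq2, against 3.33% and 7.76% of all genes. With edgeR, 2 of 10 had an unadjusted *p* under 0.05, against 18.6% of all genes. *Ogg1*, the glycosylase that removes 8-oxoguanine, measured 5.30, 6.45 and 7.34 CPM in the wild type, against 4.19, 4.67 and 3.99 CPM in the knockout (log2 fold change -0.57, SE 0.17, adjusted *p* = 0.134). *Apex1*, the endonuclease that cuts at the abasic site left behind, measured 23.9, 24.0 and 28.0 CPM against 21.4, 19.4 and 17.7 CPM (log2 fold change -0.38, SE 0.12, adjusted *p* = 0.154). Neither overlapped between genotypes. *Mutyh*, the glycosylase that removes adenine opposite 8-oxoguanine, did not overlap either, at 51 to 56 counts against 34 to 50 (log2 fold change -0.41, SE 0.23, adjusted *p* = 0.402).

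The other genes of this role had overlapping libraries. *Parp1*, the nick sensor, measured 81.1, 78.2 and 83.0 CPM against 75.6, 81.4 and 75.5 CPM, with a log2 fold change of -0.06 and an interval of -0.25 to 0.13. *Polb*, the gap-filling polymerase, measured 39.6, 34.9 and 34.8 CPM against 44.6, 36.3 and 50.2 CPM, with a log2 fold change of 0.26 (SE 0.14, adjusted *p* = 0.358). Without *Lgmn*-/--IR replicate 3 the value for *Polb* was 0.15. *Lig3*, the ligase that works with XRCC1, was uneven among the knockouts, with 917 counts in replicate 1 and 592 and 506 in replicates 2 and 3, against 844 to 949 in *Lgmn*+/+-IR (log2 fold change -0.48, SE 0.22, adjusted *p* = 0.299). Without *Lgmn*-/--IR replicate 1 its log2 fold change was -0.78 and its adjusted *p* 0.0454. The scaffold gene *Xrcc1* (0.08), *Parp2* (-0.09), the ligase gene *Lig1* (0.21) and the uracil glycosylase gene *Ung* (-0.12) did not pass the test either.

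The 3 genes of the Fanconi anemia pathway, which unhooks crosslinks between DNA strands, were sparse. With edgeR or DESeq2, 0 of 3 were called, against 3.33% and 7.76% of all genes. An unadjusted *p* under 0.05 with edgeR was found for 0 of 3, against 18.6% of all genes. *Fanci* and *Fancd2* encode the pair that the core complex ubiquitinates. *Fanci* had 50, 79 and 38 counts against 48, 17 and 45, and its log2 fold change of -0.64 had an interval of -1.75 to 0.47 (adjusted *p* = 0.512). It was -0.29 without *Lgmn*+/+-IR replicate 2, -0.28 without *Lgmn*-/--IR replicate 2 and -0.11 on log2(FPKM + 1). *Fancd2* had 230, 170 and 178 counts against 153, 197 and 183 (log2 fold change -0.16, SE 0.19, adjusted *p* = 0.693). *Fanca*, of the core complex, had 45 to 52 counts against 47 to 70 (log2 fold change 0.20). The libraries of all 3 genes overlapped between genotypes.

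**Figure D4:**
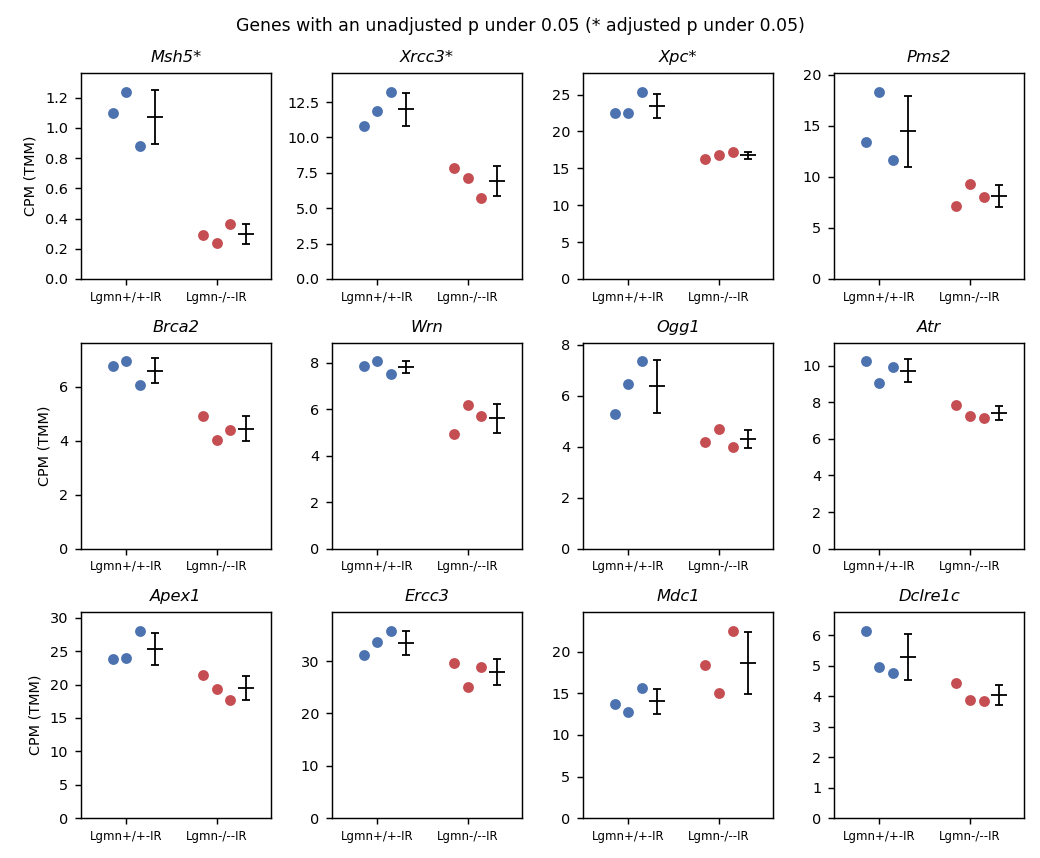
TMM-normalized CPM (y) of the 12 repair genes with an unadjusted *p* under 0.05, with 1 point per library, the mean and SD beside the points, and an asterisk for an adjusted *p* under 0.05. Of the 12 genes, 11 lie lower in *Lgmn*-/--IR without overlap, and *Mdc1* lies higher with overlap.

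Beyond the 50 genes, 120 other genes of the same pathways were listed and 115 could be tested. Only 1 of these was called, *Uvssa*, which makes 0.870% of those tested against 3.33% of all genes. UVSSA acts in transcription-coupled nucleotide excision repair, the branch that does not need XPC. *Uvssa* measured 7.80 ± 0.601 CPM in the wild type, against 4.83 ± 0.300 CPM in the knockout, without overlap, and fell by 0.69 on the log2 scale (SE 0.13, adjusted *p* = 0.0401 with edgeR's quasi-likelihood test). An unadjusted *p* under 0.05 was found for 19 of the 115 (16.5%), 12 lower and 7 higher, near the 18.6% of all genes. Libraries did not overlap for 32 of the 115 (27.8%, against 25.7%), 25 lower and 7 higher. The median log2 fold change of these 115 genes was -0.06. *Rad51b*, *Eme1*, *Neil3*, *Msh4* and *Brip1* had too few counts to be tested, at most 19 in any library.

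How firmly the 3 calls stand was seen from the alternatives. *Msh5* was called under 8 of 16 alternatives, *Xrcc3* under 5 and *Xpc* under 3, and their sign was the same under all 16. With 1 library left out, whichever of the 6 it was, each of the 3 genes lost its call, and the highest adjusted *p* was 0.119 for *Msh5*, 0.156 for *Xrcc3* and 0.168 for *Xpc*. Over all 16 alternatives the log2 fold change ran from -2.01 to -0.44 for *Msh5*, with the value nearest 0 on the log2(FPKM + 1) scale, which compresses low genes, from -0.90 to -0.55 for *Xrcc3* and from -0.52 to -0.42 for *Xpc*. DESeq2 also called *Pms2* (adjusted *p* = 0.00544) and *Brca2* (adjusted *p* = 0.0261), and called 7.76% of all genes.

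**Figure D5:**
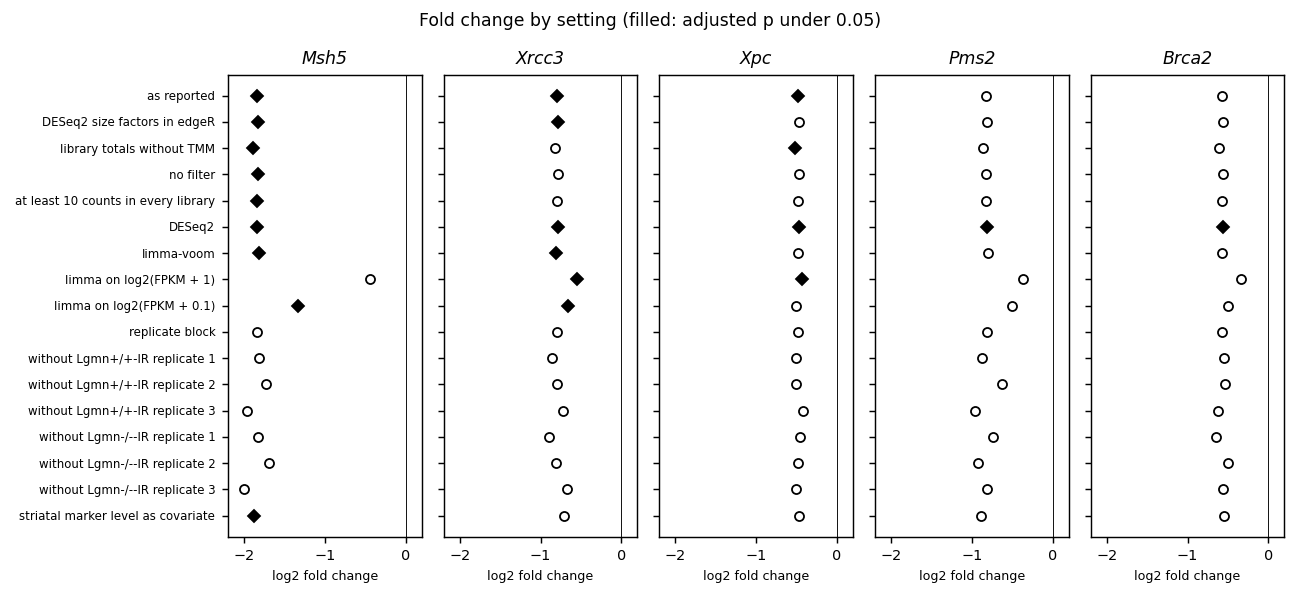
Log2 fold change (x) of *Msh5*, *Xrcc3*, *Xpc*, *Pms2* and *Brca2* as reported and under 16 alternatives (y), with filled diamonds for an adjusted *p* under 0.05. Every point lies below 0, and the points for 1 library left out are all open for *Msh5*, *Xrcc3* and *Xpc*.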

How the data were processed

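RNA from 6 cortex samples of irradiated mice, 3 of each *Lgmn* genotype, was sequenced. The authors used Trimmomatic 0.36 as the read filter, HISAT2 as the aligner and StringTie for expression, and the submitters' processing notes name GRCm38. The deposited raw read counts per gene are not normalized, and the deposited FPKM values are fragments per length of transcript and per library depth. The read counter and its use of strand are not given in the sources used here, so reads of overlapping genes could have been split either way.

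Genotypes were compared on the counts by edgeR's quasi-likelihood test (version 4.0.16, R 4.3.3), after filterByExpr and TMM scaling, with no covariate, and *p* was adjusted by Benjamini-Hochberg over 18345 genes. The study names limma for its DEGs. SE and 95% intervals come from the F statistic, and CPM are TMM-normalized (mean ± SD, n = 3). The pipeline was run on simulated data with planted changes and the same dispersion for every gene. That run does not show how reliable calls are at the spread of these libraries. Within a genotype, library pairs had a chi-square of 28.7 to 102 per gene on average, far over sampling noise, and each library counted as 1 sample. Pairs across genotypes had 64.0 to 105, so the 2 ranges overlapped. Pairs of knockout libraries had 60.8 to 102. Depth was 41874462 to 46829441 counts. 

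Gene positions came from GENCODE M21 (GRCm38), which holds 51633 of the 51826 gene IDs, and promoters from RefSeq. *Babam2*, *Abraxas1*, *Paxx*, *Shld1* and *Shld2* were matched by Ensembl ID. The 50 genes and all lists were chosen with earlier results of these data known. Genes given with full statistics are *Lgmn*, those with an adjusted or unadjusted *p* under 0.05, the most abundant and most changed of each role, and *Atm*, *Atr*, *Prkdc*, *Trp53bp1*, *Chek2* and *Parp1*. Partners of the called proteins, and *Lig3*, were chosen after their values were seen.

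Alternatives were DESeq2 1.42.0, its size factors or library totals in edgeR, no filter, at least 10 counts in every library, limma-voom and limma 3.58.1 on log2(FPKM + 1) and log2(FPKM + 0.1), the replicate number as a block, the striatal marker level as a covariate, and each library left out in turn. Same-numbered libraries come from different mice, so the block was not used for the values reported.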

Additional observations from a re-analysis of the deposited data

How the results depend on the processing

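The number of the 50 genes called, 3 as reported, was 1 without a filter, 1 with at least 10 counts in every library, 5 with DESeq2, 2 with DESeq2 size factors, with library totals, with limma-voom and on either FPKM scale, and 0 to 1 with a library left out. The 1 was *Lig3*, without *Lgmn*-/--IR replicate 1. All genes called, 611 as reported, numbered 404, 406, 1423 and 223 to 500 without a filter, with at least 10 counts, with DESeq2 and with a library left out. Other repair genes called, 1 as reported, numbered 0 without a filter, 0 with at least 10 counts, 3 with DESeq2, 0 on both FPKM scales and 0 without any of the libraries. *Lgmn* missed the threshold without a filter (-0.63, adjusted *p* = 0.0632), on log2(FPKM + 0.1) (-0.63, adjusted *p* = 0.0611) and without each of *Lgmn*+/+-IR replicates 1, 2 and 3 and *Lgmn*-/--IR replicate 1, and ranged from -0.74 to -0.54 with a library left out (highest adjusted *p* 0.131). The cause was not tested. A fit with the striatal marker level as a covariate was chosen after seeing the data. It called 1 of the 50 genes (*Msh5*, -1.88, adjusted *p* = 0.0419), 0 other repair genes and not *Lgmn* (-0.65, adjusted *p* = 0.0555), and gave *Xrcc3* -0.71 (adjusted *p* = 0.0515) and *Xpc* -0.47 (adjusted *p* = 0.0873). *Uvssa* kept its direction under all 16 alternatives and lost its call without a filter, with at least 10 counts, on both FPKM scales, with the block, with the covariate and with any library left out.

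Replicate numbers 1 to 3 occur in both genotypes, on different mice. Same-numbered libraries did not deviate together, with correlations of -0.31, -0.05 and -0.05, and 0 of 6 libraries correlated best with their own number. With the replicate block, 0 of the 50 genes, 0 other repair genes and 150 of all genes were called, and *Lgmn* had -0.65 (adjusted *p* = 0.113).

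Among the genes given with full statistics, a few near 0 changed sign. *Chek2* and *Fancd2* were at 0.0069 and 0.012 without *Lgmn*+/+-IR replicate 1. They ranged from -0.43 to 0.0069 and from -0.24 to 0.012 with a library left out. *Rad52* was at -0.083 on log2(FPKM + 1), -0.097 on log2(FPKM + 0.1), -0.060 with the striatal covariate and between -0.072 and 0.19 with a library left out. *Msh3* was at 0.040 with the covariate and between -0.12 and 0.099 with a library left out. The count of genes with non-overlapping libraries was 17 to 20 under the normalizations, filters and FPKM scales, and the median fold change of the 50 genes was -0.18 to -0.082 over all 16 alternatives. Values near 0 also changed sign for *Rnf168*, *Nbn*, *Rad50*, *Xrcc4*, *Nhej1*, *Xrcc2* and *Ercc5*, and *Nbn* did so on both FPKM scales (lowest -0.27). On log2(FPKM + 1), *Atr*, *Brca2*, *Wrn* and *Pms2* were nearer 0, at -0.20, -0.34, -0.29 and -0.37. *Dclre1c* was at -0.25 without *Lgmn*+/+-IR replicate 1 and *Xrcc6* at -0.19 without *Lgmn*-/--IR replicate 3. The fewest reads over the 6 libraries were those of *Msh5*, *Chek2*, *Palb2* and *Fanci*.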

Other observations

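Among the other repair genes, which were named here after their values were seen, several with an unadjusted *p* under 0.05 act beside the genes above. *Pms1*, another mismatch repair gene, had a log2 fold change of -0.70 (SE 0.19, adjusted *p* = 0.116 with edgeR's quasi-likelihood test), beside -0.83 for *Pms2*. *Rad51d*, another gene of homologous recombination, had -0.45 (SE 0.13, adjusted *p* = 0.131), beside -0.79 for *Xrcc3*. *Mus81*, a nuclease of recombination intermediates, had -0.45 (SE 0.12, adjusted *p* = 0.118), and *Dna2*, which resects DNA ends, had -1.11 (SE 0.38, adjusted *p* = 0.185). In all 4 the knockout libraries lay below all wild-type libraries. *Rbbp8*, which encodes the end resection factor CtIP, lay the other way without overlap, at 0.60 (SE 0.17, adjusted *p* = 0.132). *Rif1*, which acts with 53BP1, was at 0.29 (SE 0.12, adjusted *p* = 0.248) without overlap, beside 0.15 for *Trp53bp1*. *Shld2*, of the shieldin complex that acts with 53BP1 and RIF1, lay the other way, at -0.62 (SE 0.17, adjusted *p* = 0.119), with every knockout library lower. None of these 7 genes passed the test, and no relation between them was tested. They are not all such genes. At an unadjusted *p* under 0.05 with edgeR, 3 of the 26 other recombination genes tested were lower and 3 higher. Of the 23 other damage signaling genes, 1 was lower and 3 were higher.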
